A study of Sparus aurata with 8 samples.

Results

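The transcripts described here are named for receptors through which gonadotropins and steroid hormones reach cells, or for a family that holds some of them. They were taken from the count table of the gilthead seabream (*Sparus aurata*) by product name, as protein-coding features. The names were those of follicle-stimulating hormone, lutropin and progestin receptors and of some nuclear steroid receptors (the estrogen, progesterone and glucocorticoid receptors among them). This gave 23 of 31501 protein-coding features and of 197399 features in all. The mineralocorticoid receptor was not included and is counted below with other nuclear receptors. Of the 23, 3 carry the name of a gonadotropin receptor, 10 of a nuclear steroid receptor, 9 of a membrane progestin receptor or of the progestin and adipoQ receptor (PAQR) family it belongs to, and 1 of the G protein-coupled estrogen receptor.

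The pituitary hormones FSH and LH act on seven-transmembrane receptors that raise cAMP, in the testis mainly on the somatic Sertoli and Leydig cells, whose androgens and progestins then drive spermatogenesis. Nuclear steroid receptors are transcription factors switched on by their ligand. The membrane progestin receptors of the PAQR family, such as the alpha form, lie in the membrane and mediate rapid responses to progestins. In some teleosts this alpha form has been tied to progestin-stimulated sperm motility.

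RNA was measured by RNA-seq in 2 cell populations of adult males kept in captivity and sampled in the natural breeding season. Haploid germ cells (HGC) are a mix of secondary spermatocytes and spermatids obtained from testis tissue with a cell sorter (FACS), and ejaculated spermatozoa (SPZ_EJ) were stripped from spermiating males by pressure on the abdomen. Each group has 4 libraries, each from a pool of 3 males, and no strain, genotype, treatment or age in years is given. RNA was extracted from 12 males, which could mean 12 for each group or the same 12 for both. Whether a pool number stands for the same males in both groups is not stated, and the numbers were not taken to pair them. According to the methods, RNA integrity was high in HGC and low in SPZ_EJ, a difference that cannot be told apart from the cell type.

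Libraries held 15395220 to 30645027 counts. The labels were checked against marker genes. The summed level of 26 germ cell features (axonemal dyneins, synaptonemal complex, sperm-associated antigens, the RNA helicase Ddx4) was 9473 to 14090 CPM in HGC and 251 to 615 CPM in SPZ_EJ, where CPM is TMM-scaled counts per 1000000. A list of 101 leukocyte features (class II histocompatibility antigens, immunoglobulin and T-cell receptor chains, CD45, chemokine receptors) summed to 566 to 841 CPM in HGC and 4761 to 12021 CPM in SPZ_EJ, the highest in SPZ_EJ replicate 1. Of its 59 tested features, 54 were called higher in SPZ_EJ, and the 3 with no count in any library were T-cell receptor or immunoglobulin variable regions. Over all tested protein-coding features, 23.9% were called higher and 31.9% lower. For duct epithelium (keratins, claudins), the sums were 101 to 164 CPM in HGC and 862 to 1977 CPM in SPZ_EJ, with 6 of 18 tested features called higher and 1 lower, and for red blood cells 23.2 to 682 and 9.55 to 26.5 CPM. The paper describes the SPZ_EJ samples as nearly free of other cells. The part of RNA from other cells in the receptor levels was not tested. In bulk samples, fewer cells of a type and less RNA per cell cannot be told apart.

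The quasi-likelihood test of edgeR set SPZ_EJ against HGC for the 21375 features past an expression filter, with p-values adjusted over all of them (Benjamini-Hochberg). Features count as called where the adjusted p is under 0.01 and the fold change exceeds 1 on the log2 scale in either direction. Positive values stand for more transcript in SPZ_EJ. Of the 23 receptor features, all had counts and 12 passed the filter. Of these 12, 4 were called higher in SPZ_EJ, namely the nuclear progesterone receptor, PAQR9, membrane progestin receptor alpha-B and 1 of 2 PAQR3 features. Called lower were 3, namely membrane progestin receptor alpha, PAQR6 and 1 of 4 glucocorticoid receptor features. Among all tested protein-coding features, 23.9% were called higher and 31.9% lower (55.8% in either direction, and 56.9% of all tested features), so the receptors were called about as often as other mRNAs. The median log2 fold change was -0.17 over the 12 receptors and -0.29 over all tested protein-coding features. Scaling by library size only moved the median of all features by 0.73 and turned the split of called mRNAs from 3659 higher and 4881 lower to 4659 and 3436. The 7 calls named here held under it, with their direction.

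**Figure D1:**
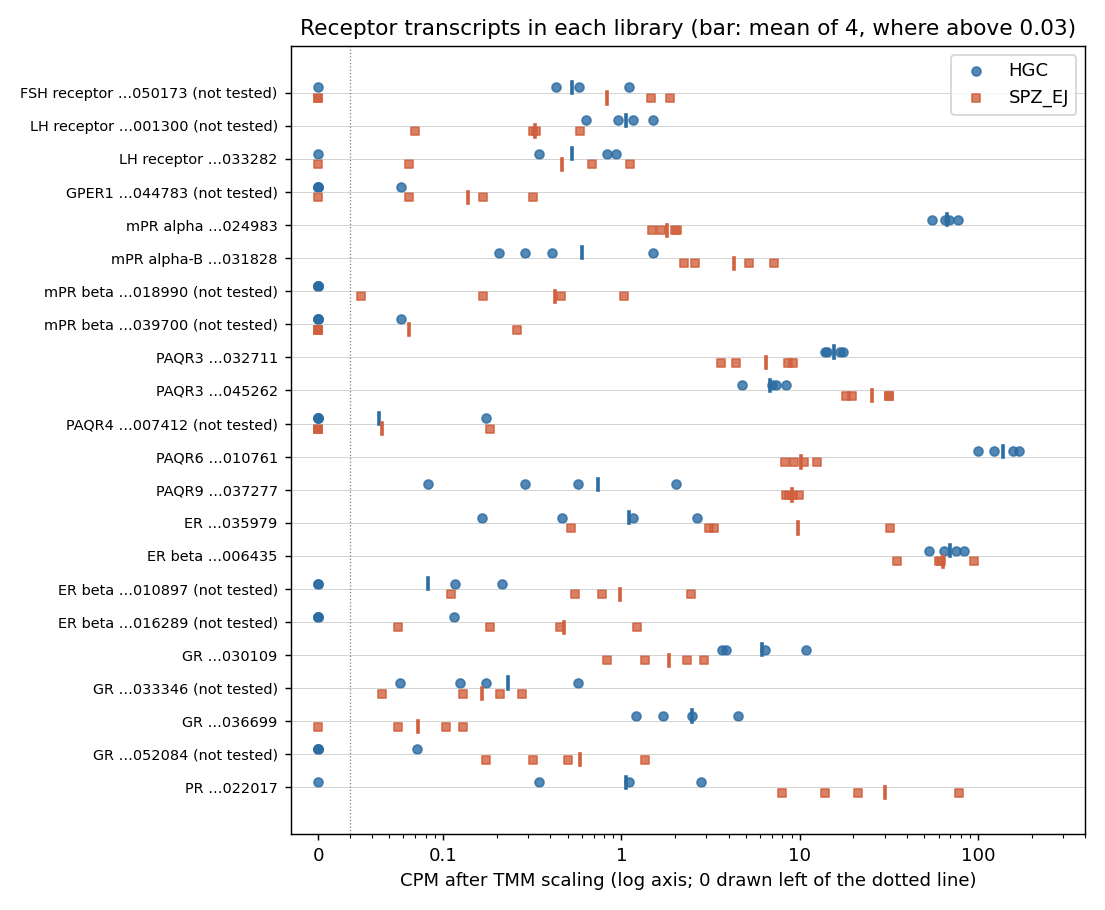
Level of 22 of the 23 receptor features in each library, in CPM after TMM scaling on a log axis, with circles for the 4 HGC libraries, squares for the 4 SPZ_EJ libraries, bars for group means and zeros left of the dotted line. Membrane progestin receptor alpha and PAQR6 stand far lower in every SPZ_EJ library, and the progesterone receptor and PAQR9 stand higher in every one.

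Membrane progestin receptor alpha (Saurata1B024983) was at 55.4, 65.6, 77.3 and 69.0 CPM in HGC replicates 1 to 4 and at 2.05, 1.49, 1.67 and 2.01 CPM in SPZ_EJ replicates 1 to 4. The groups lay far apart, with narrow spread in each. The level was 36.7-fold lower in SPZ_EJ (log2 fold change -5.2, SE 0.31, edgeR adjusted p = 1.44e-06). PAQR6, known in mammals as membrane progestin receptor delta (Saurata1B010761), measured 171, 157, 122 and 99.8 CPM in HGC against 10.5, 8.25, 9.32 and 12.5 CPM in the SPZ_EJ pools. It too separated the groups fully and was 13.5-fold lower in SPZ_EJ (log2 fold change -3.76, SE 0.31, edgeR adjusted p = 2.77e-06). Both stayed called in all 17 alternative settings, among them a looser threshold on the same fit that could not remove a call.

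Membrane progestin receptor alpha-B (Saurata1B031828), the other alpha form of the table, moved the opposite way. It measured 1.5, 0.289, 0.208 and 0.407 CPM in HGC against 7.2, 2.6, 5.19 and 2.24 CPM in the SPZ_EJ pools. All SPZ_EJ pools lay above the HGC pools, and HGC replicate 1 was well above the other 3. The rise was 7.29-fold (log2 fold change 2.87, SE 0.75, edgeR adjusted p = 0.00505). It lost its call without HGC replicate 2, 3 or 4 (edgeR adjusted p = 0.0250, 0.0245 and 0.0229), without SPZ_EJ replicate 1 (0.0132) and without the expression filter (0.0146), and its log2 fold change was 3.65 without HGC replicate 1.

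PAQR9, known in mammals as membrane progestin receptor epsilon (Saurata1B037277), measured 0.571, 0.289, 0.0831 and 2.03 CPM in HGC against 9.95, 9.23, 8.7 and 8.41 CPM in the SPZ_EJ pools. The SPZ_EJ pools were close to each other, while HGC replicate 4 held 35 of the 50 HGC counts. The level was 12.2-fold higher in SPZ_EJ (log2 fold change 3.61, SE 0.78, edgeR adjusted p = 0.00164). The call held in every setting, with a log2 fold change of 4.69 without HGC replicate 4 and 3.02 without HGC replicate 3. SPZ_EJ replicate 1, the pool highest in leukocyte and duct epithelium markers, exceeded the mean of the other pools 1.13-fold for this transcript. For the other features called higher this was 2.16-fold (alpha-B), 1.37-fold (PAQR3 Saurata1B045262) and 5.43-fold (progesterone receptor).

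PAQR3 is known in mammals less as a hormone receptor than as a Golgi protein that holds the kinase Raf there. The table has 2 features of this name, of which 1 was called higher and the other was not called. Saurata1B045262 measured 7.0, 8.33, 4.73 and 7.32 CPM in HGC against 31.7, 31.7, 18.1 and 19.7 CPM in the SPZ_EJ pools, without overlap and 3.69-fold higher (log2 fold change 1.89, SE 0.34, edgeR adjusted p = 0.00054). It was not called without the expression filter (edgeR adjusted p = 0.0774). Saurata1B032711 measured 16.9, 17.5, 13.9 and 14.3 CPM in HGC against 9.15, 8.64, 3.63 and 4.39 CPM in the SPZ_EJ pools. All SPZ_EJ libraries lay below all HGC libraries, and the difference missed the threshold (log2 fold change -1.28, SE 0.39, edgeR adjusted p = 0.0122, approximate 95% interval -2.13 to -0.42). It was called without SPZ_EJ replicate 1 (log2 fold change -1.64, edgeR adjusted p = 0.00403) and by limma-voom (-1.75, adjusted p = 0.000428).

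The ratio of both PAQR3 features within a library does not depend on how libraries are scaled. The log2 ratio of Saurata1B045262 to Saurata1B032711 counts was -1.27, -1.07, -1.55 and -0.96 in HGC replicates 1 to 4, so Saurata1B032711 held more of the PAQR3 counts in each. In SPZ_EJ it was 1.79, 1.87, 2.31 and 2.16, and Saurata1B045262 held more in every pool. The same ratio of alpha-B to alpha was -5.17, -7.69, -8.4 and -7.31 in HGC and 1.8, 0.79, 1.62 and 0.15 in SPZ_EJ. In counts, too, alpha made up nearly all of the pair in HGC and alpha-B the larger part in each SPZ_EJ library. These ratios were formed after the levels had been seen and are given without a test, and counts of different genes also depend on transcript length. RNA integrity, high in HGC and low in SPZ_EJ, could also move the ratios between the groups, which was not tested.

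**Figure D2:**
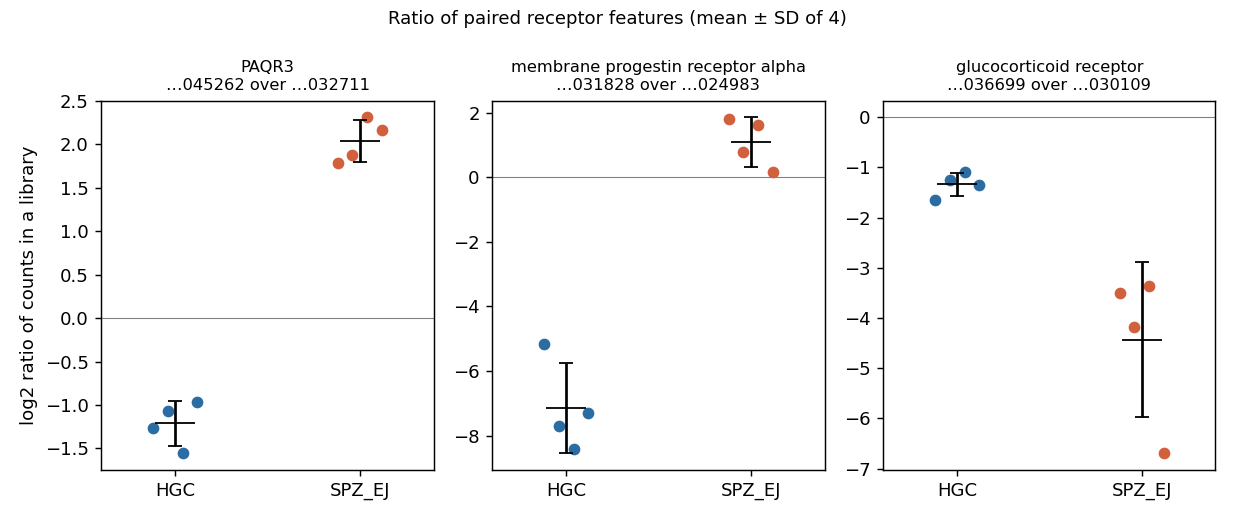
Log2 ratio of the counts of paired receptor features within each library, with 0.5 added to each count, for PAQR3, the membrane progestin receptor alpha forms and the glucocorticoid receptor; points are libraries and bars the mean ± SD of 4. In no pair do the HGC and SPZ_EJ libraries overlap, and for the first and second pair the ratio changes sign between the groups.

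The remaining PAQR features had few counts and did not pass the filter. Membrane progestin receptor beta (Saurata1B018990) had no count in HGC. Its SPZ_EJ counts were 1, 16, 3 and 10. Their mean level was at least 10.3-fold above a floor of 3 counts over the HGC group (0.0413 CPM). Every SPZ_EJ library held at least 1 count (exact permutation p = 0.0286, two-sided, the smallest that 4 against 4 libraries can give). The full separation rests on the 1 count of SPZ_EJ replicate 1. DESeq2 (adjusted p = 0.0133) and edgeR without the filter (adjusted p = 0.0985) did not call this feature. All SPZ_EJ libraries lay above all HGC libraries in 7.85% of the untested protein-coding features with counts and in 27.6% of the tested ones. The untested share includes features with too few counts to separate the groups. The second feature of that name (Saurata1B039700) and PAQR4 (Saurata1B007412) had at most 4 counts in any library, and no difference was detectable at this depth. Exact permutation tests were run for all 11 receptor features outside the filter.

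Among the nuclear receptors, the progesterone receptor (Saurata1B022017), the transcription factor through which progestins act on genes, rose. It had 39, 6, 0 and 19 counts in HGC and 2237, 123, 379 and 303 counts in SPZ_EJ replicates 1 to 4, or 2.79, 0.347, 0 and 1.1 CPM against 77.9, 7.99, 21.1 and 13.8 CPM. Every SPZ_EJ pool exceeded every HGC pool, and SPZ_EJ replicate 1 stood 5.43-fold above the mean of the other SPZ_EJ pools. The level was 29.3-fold higher in SPZ_EJ (log2 fold change 4.87, SE 1.13, edgeR adjusted p = 0.00249). Without SPZ_EJ replicate 1 the log2 fold change was 3.66 (edgeR adjusted p = 0.00524), and without HGC replicate 1 it was 5.85 (0.00224). The leukocyte marker sum was also highest in SPZ_EJ replicate 1, at 1.82 times the mean of the other pools. So were the sums for duct epithelium (1.925 times), red blood cells (2.07 times) and somatic cells of the testis (1.53 times). The germ cell sum was lowest there (0.459 times). Of the other SPZ_EJ pools, replicate 2 had the highest leukocyte sum (8231 CPM) and duct epithelium sum (1143 CPM). Its progesterone receptor level was the lowest of the SPZ_EJ pools (7.99 CPM). The part of other cells in the rise of this receptor was not tested.

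The estrogen receptor (Saurata1B035979) measured 2.64, 0.463, 0.166 and 1.16 CPM in HGC against 32.2, 0.52, 3.29 and 3.11 CPM in the SPZ_EJ pools. A single pool, SPZ_EJ replicate 1, stood high, while SPZ_EJ replicate 2 lay within the HGC range. The difference was not called (log2 fold change 3.17, SE 1.17, edgeR adjusted p = 0.0312, interval 0.59 to 5.74). Without SPZ_EJ replicate 1 the log2 fold change was 0.92 (edgeR adjusted p = 0.360), so the apparent rise rests on that pool. It was called by DESeq2 (adjusted p = 0.00431), with scaling by library size only (0.00607) and without the filter (0.000113).

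Estrogen receptor beta is named for 3 features. The one with the most counts (Saurata1B006435) measured 83.8, 53.3, 64.1 and 75.5 CPM in HGC against 35.3, 61.9, 95.5 and 60.1 CPM in the SPZ_EJ pools. The groups overlapped fully and no difference was detected (log2 fold change -0.13, SE 0.33, edgeR adjusted p = 0.735, interval -0.85 to 0.59), and the sign of the estimate turned with the scaling. In contrast to the estrogen receptor, SPZ_EJ replicate 1 was the lowest pool here. The other 2 features had few HGC counts. Saurata1B010897 had 3, 0, 0 and 2 counts in HGC and 71, 12, 2 and 12 in SPZ_EJ (exact permutation p = 0.0857), and Saurata1B016289 had 0, 2, 0 and 0 in HGC against 35, 7, 1 and 4 in SPZ_EJ (exact permutation p = 0.0571), a ratio of 20.3 with a 95% counting interval of 5.32 to 173. In both, SPZ_EJ replicate 1 held most counts and SPZ_EJ replicate 3 lay within the HGC range. Without SPZ_EJ replicate 3, Saurata1B010897 passed the filter and was called higher (log2 fold change 4.11, edgeR adjusted p = 0.00813). In the other 6 settings that tested it, which were DESeq2 (adjusted p = 0.0106), edgeR without the filter (0.0793) and edgeR without each HGC replicate (0.0258 to 0.0687), it was not called. Saurata1B016289 was not called by DESeq2 (adjusted p = 0.0285) or by edgeR without the filter (adjusted p = 0.163). Its counting interval leaves out the spread between pools. The G protein-coupled estrogen receptor (Saurata1B044783) had 1 count in HGC and 0, 1, 3 and 7 in SPZ_EJ (exact permutation p = 0.143).

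**Figure D3:**
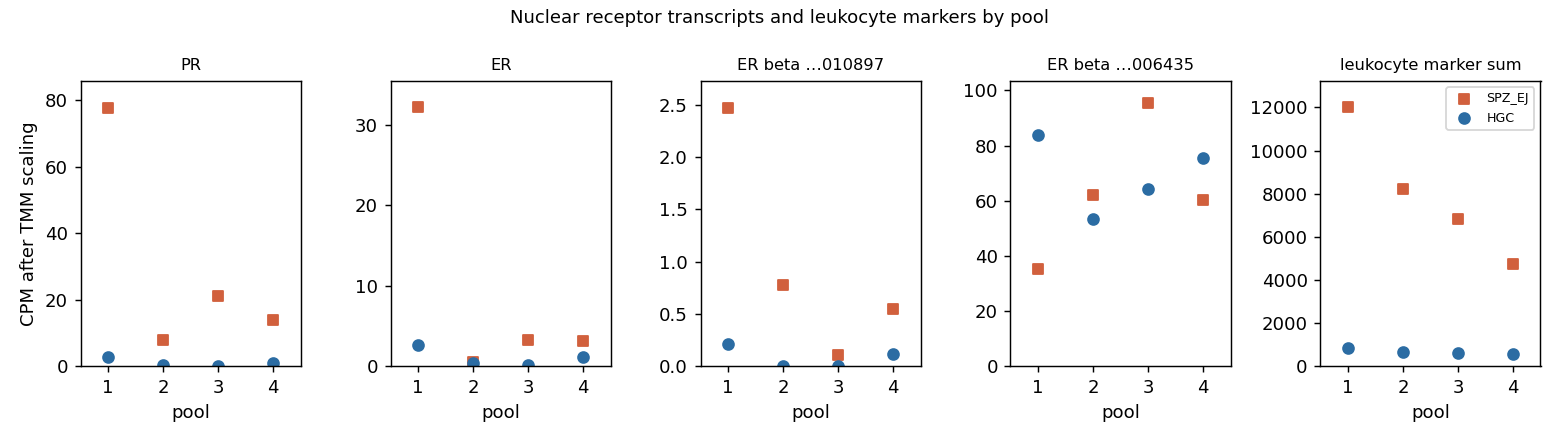
Level of the progesterone receptor (PR), the estrogen receptor (ER) and 2 estrogen receptor beta features in each pool, with the summed level of leukocyte markers, in CPM after TMM scaling on linear axes from 0. Squares are SPZ_EJ and circles HGC, and pool numbers were not taken to pair the groups. SPZ_EJ replicate 1 is the highest pool for PR, ER, ER beta Saurata1B010897 and the leukocyte markers, and the lowest SPZ_EJ pool for ER beta Saurata1B006435. Of the other SPZ_EJ pools, replicate 2 is the highest for the leukocyte markers and the lowest for PR and ER.

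The glucocorticoid receptor, which responds to cortisol in fish, is named for 4 features, of which 2 passed the filter. Saurata1B036699 measured 1.21, 4.51, 1.7 and 2.5 CPM in HGC against 0.104, 0.13, 0.0558 and 0 CPM in the SPZ_EJ pools, where the 4 libraries held 3, 2, 1 and 0 counts. It was 32.0-fold lower in SPZ_EJ (log2 fold change -5.0, SE 0.85, edgeR adjusted p = 0.000337), a call that held in every setting. Saurata1B030109 measured 3.86, 10.8, 3.65 and 6.39 CPM in HGC against 1.36, 2.92, 0.837 and 2.33 CPM in the SPZ_EJ pools. All SPZ_EJ libraries lay below all HGC libraries, but the difference was not called (log2 fold change -1.73, SE 0.56, edgeR adjusted p = 0.0166, interval -2.96 to -0.50). It was called without the filter (edgeR adjusted p = 0.00718) and by limma-voom (adjusted p = 0.00876). The log2 ratio of Saurata1B036699 to Saurata1B030109 was -1.64, -1.26, -1.09 and -1.34 in HGC and -3.5, -4.19, -3.37 and -6.69 in SPZ_EJ, lower in every SPZ_EJ library.

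A further glucocorticoid receptor feature (Saurata1B052084) had 1, 0, 0 and 0 counts in HGC and 5, 21, 9 and 7 in SPZ_EJ, a ratio of 36.3 (95% counting interval 6.17 to 1468, exact permutation p = 0.0286). DESeq2 called it higher in SPZ_EJ (adjusted p = 0.00465), while edgeR without the filter did not (log2 fold change 4.14, adjusted p = 0.138). The last (Saurata1B033346) had 8, 1, 3 and 3 counts in HGC but 6, 2, 5 and 1 in SPZ_EJ, which overlap (exact permutation p = 0.771). Whether features of one name are gene copies or pieces of one gene model was not tested, and counts of near-identical copies could be shared between them.

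**Figure D4:**
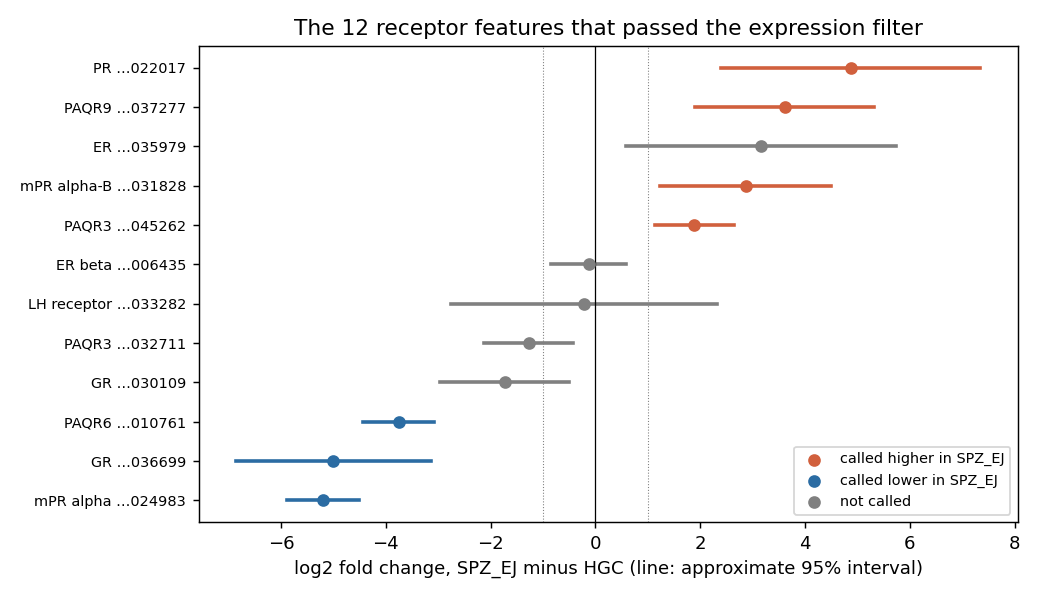
Log2 fold change of SPZ_EJ over HGC for the 12 receptor features that passed the expression filter, with an approximate 95% interval from the fit (lines) and the thresholds of 1 and -1 (dotted). The 4 features called higher lie between 1.89 and 4.87 and the 3 called lower between -5.20 and -3.76, while the interval of ER beta Saurata1B006435 spans 0 from -0.85 to 0.59.

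The gonadotropin receptors were found at low levels. The LH receptor is named for 2 features. Saurata1B001300 had 21, 11, 23 and 20 counts in HGC, or 1.5, 0.637, 0.955 and 1.16 CPM, and 2, 9, 6 and 7 counts in SPZ_EJ, or 0.0696, 0.585, 0.335 and 0.32 CPM. Every SPZ_EJ library lay below every HGC library (1.06 ± 0.363 against 0.327 ± 0.21 CPM, exact permutation p = 0.0286, two-sided, again the smallest possible). The margin was narrow, with HGC replicate 2 at 0.637 CPM and SPZ_EJ replicate 2 at 0.585 CPM. Of the untested protein-coding features with counts, 4.09% had every SPZ_EJ library below every HGC library, and of the tested ones 38%. The untested set takes in features with too few counts to separate the groups, so its share does not show how rare this is. The feature did not pass the filter of edgeR's test, and in the 9 alternative settings that tested it the adjusted p was 0.0246 to 0.131, so it was not called in any.

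The second LH receptor feature (Saurata1B033282) had 0, 6, 20 and 16 counts in HGC and 0, 1, 20 and 15 in SPZ_EJ. Its groups overlapped, with a library at 0 in each (log2 fold change -0.21, SE 1.16, edgeR adjusted p = 0.88, interval -2.75 to 2.33), and the sign of the estimate turned with the scaling. The FSH receptor (Saurata1B050173) had 6, 0, 14 and 19 counts in HGC against 0, 29, 0 and 32 in SPZ_EJ (exact permutation p = 0.657). In SPZ_EJ its counts came from replicates 2 and 4 alone, and the other 2 pools had none, which allows a level of up to 0.104 CPM in replicate 1 and 0.167 CPM in replicate 3. The paper also describes direct activation of the LH receptor in teleost spermatids, which are part of HGC. Among markers of the somatic cells of the testis, which carry gonadotropin receptors as well, 8 features had product names (inhibin beta chains, steroidogenic acute regulatory protein, the side-chain cleavage enzyme, Wilms tumor homolog). The acute regulatory protein and the cleavage enzyme also stand in the list of steroid-making enzymes. The 8 features summed to 5.21 to 18.6 CPM in HGC and 7.34 to 19.3 CPM in SPZ_EJ, so the sums overlapped here too. In HGC replicates 1 to 4 the cleavage enzyme alone held 4.0, 7.64, 15.1 and 6.8 CPM of 5.21, 10.7, 18.6 and 10.8. In the SPZ_EJ replicates it held 5.57, 2.79, 7.25 and 10.7 CPM of 19.3, 7.34, 15.4 and 15.2. Without this enzyme, every SPZ_EJ sum lay above every HGC sum. Of the 3 tested, 1 was called higher in SPZ_EJ and 0 lower. An untested feature of the acute regulatory protein (Saurata1B013177) had 23 counts in HGC and 0 in SPZ_EJ. The part of these cells in the receptor counts was not tested.

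**Figure D5:**
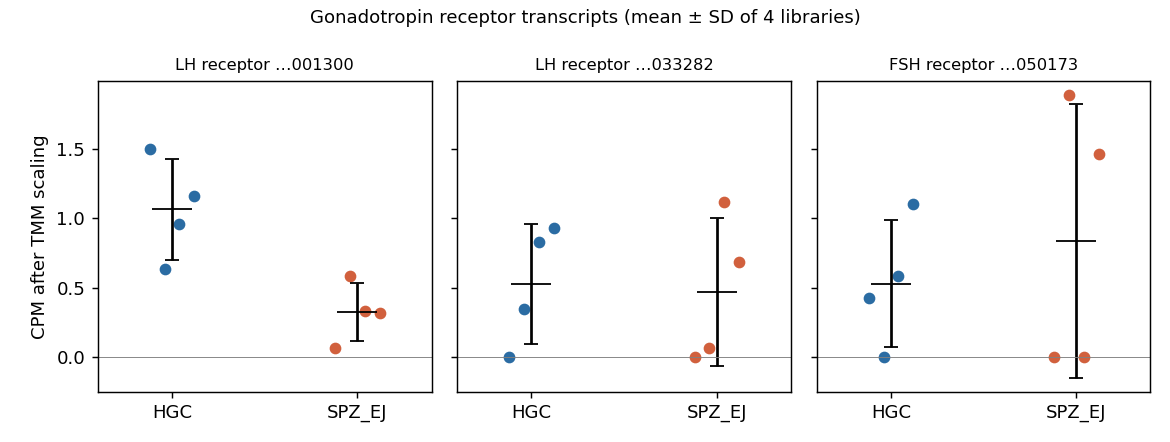
Level of 2 LH receptor features, the FSH receptor in each library, in CPM after TMM scaling, with mean ± SD of 4 libraries. The groups separate by a narrow margin for LH receptor Saurata1B001300, where all SPZ_EJ libraries lie below all HGC libraries, and overlap for the others.

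Of the 12 tested receptors, 4 had every SPZ_EJ library above every HGC library and 5 had every one below, against 27.6% and 38% of all tested protein-coding features. SPZ_EJ replicate 1 was the highest pool in 6 of the 12, and replicates 2, 3 and 4 in 3, 2 and 1. Of the 4 called higher, SPZ_EJ replicate 1 was the highest pool in 3 and replicate 2 in 1.

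Steroid-making and steroid-converting enzymes supply the ligands of these receptors. Of 18 features, 8 were tested, of which 4 were called lower and 2 higher. For this list and those that follow, the shares over all tested protein-coding features were 23.9% called higher and 31.9% lower. Called lower were both features of 5-alpha-reductase 1, which reduces testosterone to dihydrotestosterone. Saurata1B034772 stood at 8.38 ± 3.2 CPM (mean ± SD, n = 4) in HGC against 0.0934 ± 0.117 in SPZ_EJ (log2 fold change -6.3, SE 0.89, edgeR adjusted p = 9.92e-05), and Saurata1B049136 fell from 1.8 ± 0.88 CPM to no count in any SPZ_EJ library, at least 50.3-fold lower against 3 counts over the group (edgeR adjusted p = 0.000259). Hydroxysteroid 11-beta-dehydrogenase 1, of a family that interconverts active and inactive glucocorticoids, stood at 19.8 ± 6.0 CPM (mean ± SD, n = 4) in HGC against 1.39 ± 0.936 in SPZ_EJ (log2 fold change -3.85, SE 0.58, edgeR adjusted p = 0.000156). 1 of the aromatase features (Saurata1B056325), the enzyme that turns androgens into estrogens, was higher, at 0.396 ± 0.436 CPM (mean ± SD, n = 4) in HGC against 8.44 ± 3.22 in SPZ_EJ (log2 fold change 4.43, SE 0.92, edgeR adjusted p = 0.00123). So was 17-beta-hydroxysteroid dehydrogenase 14, which oxidises estradiol, at 0.266 ± 0.214 CPM (mean ± SD, n = 4) in HGC against 4.84 ± 0.858 in SPZ_EJ (log2 fold change 4.18, SE 0.68, edgeR adjusted p = 0.000269). The side-chain cleavage enzyme that begins steroid synthesis was not called, at 8.39 ± 4.75 CPM (mean ± SD, n = 4) in HGC against 6.59 ± 3.32 in SPZ_EJ (log2 fold change -0.35, SE 0.52, edgeR adjusted p = 0.562).

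Coregulators bind nuclear receptors and pass their signal to the transcription machinery. Of 14 features, 11 were tested, of which 4 were called higher and 2 lower. Only 1 was called lower with DESeq2 size factors, with library size only, or without HGC replicate 2, SPZ_EJ replicate 3 or SPZ_EJ replicate 4. A coactivator 3 feature (Saurata1B056371) rose, at 1.22 ± 1.15 CPM (mean ± SD, n = 4) in HGC against 22.3 ± 9.31 in SPZ_EJ (log2 fold change 4.19, SE 0.63, edgeR adjusted p = 0.000159). The 2 features of nuclear receptor-interacting protein 3 rose as well, Saurata1B037898 with a log2 fold change of 3.54 and Saurata1B053806 with 3.27 (edgeR adjusted p = 0.00015 and 0.000441). The other coactivator 3 feature (Saurata1B025465) was not called, at 8.24 ± 3.99 CPM in HGC against 4.68 ± 1.12 in SPZ_EJ (log2 fold change -0.82, SE 0.46, edgeR adjusted p = 0.13). Coactivator 5 fell from 262 ± 44.2 CPM in HGC to 63.6 ± 9.1 in SPZ_EJ (log2 fold change -2.04, SE 0.26, edgeR adjusted p = 4.82e-05), and 1 of the coactivator 2 features (Saurata1B050978) from 7.51 ± 0.946 to 2.0 ± 1.12 CPM (log2 fold change -1.91, SE 0.50, edgeR adjusted p = 0.00503).

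Steroid receptors are held ready for their ligand by Hsp90 and its partners. Of 7 such features, 6 were tested, with 2 called in each direction. FKBP5, an Hsp90 partner that glucocorticoids induce in mammals, was higher in both of its features. Saurata1B053472 stood at 1.25 ± 1.13 CPM (mean ± SD, n = 4) in HGC against 80.4 ± 25.1 in SPZ_EJ (log2 fold change 6.0, SE 0.65, edgeR adjusted p = 1.58e-05), and Saurata1B042539 had no HGC count but 76, 21, 13 and 11 counts in SPZ_EJ, at least 31.7-fold higher (edgeR adjusted p = 0.000654). Its relative FKBP4 was not called (log2 fold change -0.65, SE 0.25, edgeR adjusted p = 0.0381). Heat shock protein 90-alpha 1 fell from 107 ± 32.2 CPM in HGC to 20.6 ± 17.4 in SPZ_EJ (log2 fold change -2.38, SE 0.62, edgeR adjusted p = 0.00518) and a Cdc37 feature from 8.7 ± 3.56 to 1.12 ± 0.794 CPM (log2 fold change -2.94, SE 0.65, edgeR adjusted p = 0.00183). With scaling by library size only, neither was called lower.

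Other nuclear receptors showed changes in both directions. Of 64 features, 35 were tested, 13 called higher and 10 lower, with a median log2 fold change of 0.58 against -0.29 over all tested protein-coding features. The vitamin D3 receptor feature Saurata1B002706 fell from 15.5 ± 2.17 CPM in HGC to 0.0995 ± 0.0734 in SPZ_EJ (log2 fold change -7.13, SE 0.61, edgeR adjusted p = 3.70e-06). Thyroid hormone receptor alpha-B (log2 fold change -6.34, SE 0.82, edgeR adjusted p = 5.12e-05) and NR1D1, a repressor of the circadian clock (log2 fold change -5.15, SE 0.36, edgeR adjusted p = 1.52e-06), were lower too. RXR-gamma-B, a partner with which many nuclear receptors pair, rose from 0.709 ± 0.861 CPM in HGC to 60.0 ± 8.35 in SPZ_EJ (log2 fold change 6.4, SE 0.77, edgeR adjusted p = 3.13e-05). NR2F6 (Saurata1B031097) rose from 0.193 ± 0.209 CPM in HGC to 7.61 ± 1.85 in SPZ_EJ (log2 fold change 5.21, SE 0.79, edgeR adjusted p = 0.000158), and NR5A2 (Saurata1B054220) had 1 HGC count and 33, 32, 31 and 36 in SPZ_EJ, a ratio of 114 (95% counting interval 20.1 to 4541, edgeR adjusted p = 0.000124).

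Among other hormone receptors of the reproductive axis, 10 of 25 features were tested. Activin receptor type-2A (Saurata1B026542), a receptor of activins and related factors, fell from 11.3 ± 3.8 CPM in HGC to 0.751 ± 0.258 in SPZ_EJ (log2 fold change -3.9, SE 0.48, edgeR adjusted p = 3.91e-05). The insulin-like growth factor 1 receptor (Saurata1B035376) fell from 17.8 ± 6.05 CPM in HGC to 2.05 ± 0.50 in SPZ_EJ (log2 fold change -3.11, SE 0.41, edgeR adjusted p = 6.01e-05). None was called higher by edgeR's test, DESeq2 or limma-voom, and 1 was higher at an unadjusted edgeR p below 0.05. The gonadotropin-releasing hormone II receptor feature that was tested (Saurata1B000548) stood at 6.38 ± 0.871 CPM (mean ± SD, n = 4) in HGC against 4.8 ± 2.11 in SPZ_EJ (log2 fold change -0.41, SE 0.45, edgeR adjusted p = 0.433), a difference that was not called. The other features of that name did not pass the filter and had more counts in SPZ_EJ. In HGC against SPZ_EJ these were 13 and 42 (Saurata1B030816), 2 and 23 (Saurata1B032775), 2 and 7 (Saurata1B049865), and 0 and 7 (Saurata1B009150). The groups overlapped in each. For gnrhr1, gnrhr2 and gnrhr3, the paper reports no significant difference in its RNA-seq. By qRT-PCR, it reports gnrhr2 and gnrhr3 as upregulated in SPZ_EJ and gnrhr1 as not. Which feature each of these genes stands for was not tested.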

How the data were processed

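RNA-seq was analysed in 4 HGC and 4 SPZ_EJ libraries, grouped by their labels, each a pool of 3 males; libraries were unstranded and oligo-dT primed (SMARTseq2). The authors mapped reads with STAR 2.5.3a to their re-annotated reference, whose build name is not given in the sources used here, and deposited RSEM 1.3.0 expected counts per gene, as whole numbers without normalization. Pairs of libraries of a group differed by 11.1 to 62.6 times counting noise, so none was a copy of another, and each was counted as 1 sample. No count fell in a row without a feature ID, and 0 columns were left unmapped.

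Features were kept by filterByExpr, scaled by TMM and tested with edgeR 4.0.16; the SE is the log2 fold change over the square root of F. Features outside the filter were compared by an exact permutation test of CPM, two-sided. Floors (3 counts) and 95% intervals (exact binomial) cover counting error only. The fit was also run on simulated data with as many features raised as lowered, which cannot show whether the scaling is right here. Alternatives were DESeq2 1.42.0, limma-voom (limma 3.58.1), other scalings, filters and thresholds, omission of each library, and the replicate number as a block. R 4.3.3 was used, with scipy 1.17.1 for exact tests and matplotlib 3.10.9 for plots, under Python 3.11.15.

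Members and lists came from product names and were chosen with earlier results of these data known. Values are given for every member called or at 1 CPM or more in a group. They are also given for each other gonadotropin and nuclear receptor but 1. Of related lists, the up to 3 called features per direction with the largest change are given. The side-chain cleavage enzyme, FKBP4, coactivator 3 feature Saurata1B025465, the gonadotropin-releasing hormone II receptor and the acute regulatory protein feature Saurata1B013177 were added after their values were seen. Lists follow the spelling of the table, with estrogen-related receptors and immunoglobulin chains added and chance matches removed by name. Sequences are not shown, and the values of 1 of the 23 members, which was outside the filter, are not reported here.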

Additional observations from a re-analysis of the deposited data

Results flagged for a closer look

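In 45 groups of 4 libraries (receptor features with over 20 counts in the group, total counts and marker sums), 3 had a library far from the rest by Dixon's ratio of the gap to the range; chance flags about 1 in 20 such groups. The estrogen receptor Saurata1B035979 was far higher in SPZ_EJ replicate 1 (32.2 CPM, ratio 0.912). Membrane progestin receptor alpha-B (Saurata1B031828) was higher in HGC replicate 1 (1.5 CPM, ratio 0.846). The total counts of HGC replicate 3 were higher (30645027, ratio 0.873).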

How the results depend on the processing

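The 7 calls kept their direction in all 17 alternative settings. Membrane progestin receptor alpha, PAQR6, PAQR9, the progesterone receptor and glucocorticoid receptor Saurata1B036699 also kept their call in each, and alpha-B and PAQR3 Saurata1B045262 lost it where the text says so. The setting with an adjusted p below 0.05 and no fold minimum used the main fit, so it could not remove or reverse a call. The receptors called lower were 5 rather than 3 by limma-voom and at an adjusted p below 0.05 without a fold minimum, 4 without the filter, and 3 to 4 with 1 library left out. Those called higher were 6 rather than 4 by DESeq2, and 5 with library size only and at the looser threshold. They were 3 without the filter and 3 to 5 with 1 library left out. Features called in all were 12165, against 20482 by DESeq2 and 12050 by edgeR without the filter (the cause of the DESeq2 difference was not tested), and 10648 to 15286 with 1 library left out. The sign of estrogen receptor beta Saurata1B006435 turned by limma-voom (0.16), with DESeq2 size factors (0.0018) and with library size only (0.55). The sign of LH receptor Saurata1B033282 turned by limma-voom (0.80), with library size only (0.43) and without SPZ_EJ replicate 1 (0.053) or 2 (0.092), with a range of -1.17 to 0.092 when 1 library was left out. Neither was called in any setting, and the cause was not tested. Coregulators called lower were 1 rather than 2 with DESeq2 size factors and with library size only, and 1 to 2 with 1 library left out. Chaperones called lower were 0 rather than 2 with library size only, 4 at the looser threshold and 1 to 3 with 1 library left out. Other hormone receptors called lower were 4 rather than 2 by limma-voom, and those called higher were 1 rather than 0 with library size only and at the looser threshold. Of 46 mean levels, 6 moved by more than 1 SD with library size only. Same-numbered pools correlated at 0.117, 0.0155, 0.0125 and 0.0818 in their deviations from the group means, so the numbers were not taken to pair them; with the replicate number as a block, 10889 features were called and the receptors called stayed at 4 and 3. The 4 libraries per group and the few counts of 11 features limit what could be detected.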
